A study of Homo sapiens with 6 samples.

Results

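The genes described here are 10 genes known to be switched on by ERK signalling: the phosphatase genes DUSP1, DUSP4, DUSP5 and DUSP6, the Sprouty genes SPRY2 and SPRY4, the SPRED genes SPRED1 and SPRED2, and the early targets EGR1 and IER3. They were chosen by their symbols in the deposited expression table, each symbol stands in 1 row of its 27328 loci, and all 10 were among the 12064 loci that passed the filter on low values. The samples are 6 RNA-seq libraries of purified mRNA from SACC-83, an established line of human salivary adenoid cystic carcinoma cells. The 3 vector libraries carry an empty vector and are labelled wild type. The 3 overexpression libraries are described as overexpressing circMYBL1, a circular RNA that takes its name from MYBL1, a transcription factor gene, and the sequencing was meant to find its targets. Their genotype labels read circMYBL1, circMYBL2 and circMYBL3 in step with the replicate number. Since the titles mark all 3 alike, they were kept as replicates. The sources used here give neither the type of vector nor the number of clones. They do not say whether libraries of a group are separate cultures, so the p-values reflect a spread that may be purely technical.

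ERK is the last kinase of the RAS, RAF and MEK relay that carries growth factor signals into the nucleus. Active ERK induces early transcription factor genes such as EGR1 within minutes, and it also induces its own brakes. DUSP proteins remove the activating phosphates from MAP kinases, and Sprouty and SPRED proteins dampen the relay upstream, at the level of RAS and RAF. In epithelial tumors the mRNA levels of these genes are widely read as a sign of how strongly the pathway is running.

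Levels are given as FPKM, fragments scaled by gene length and library total, and depth per library is unknown from such values. MYBL1, the host gene of the circle, stood at 9.04, 7.15 and 10.3 FPKM in vector libraries 1, 2 and 3 and at 359, 44.0 and 2025 FPKM in their overexpression counterparts. All 7 epithelial markers on a list of cell type markers were detected, with KRT8 reaching 1123 FPKM. The leukocyte genes PTPRC, CD3E and LYZ and the fibroblast gene COL1A2 were at 0 in every library. Other non-epithelial markers were detected in every library: CD68 at 6.49 to 10.8 FPKM, COL1A1 at 2.95 to 11.1 and ACTA2 at 1.39 to 8.02. The 2 libraries numbered 2 stood apart from the other 4 for many genes: both lay below the other 4 for 25.7% of tested loci and above them for 35.9%. Same-numbered libraries of the groups varied together, and the meaning of the numbers is not given in the labels.

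The 10 genes were expressed at very different levels. IER3 had the highest mean over the 6 libraries, 93.2 FPKM, above 95.1% of tested loci. DUSP1 followed at 21.1 FPKM, then DUSP6 at 11.4 and DUSP4 at 10.4, SPRY2 at 6.002 and SPRED2 at 5.94, EGR1 at 4.61, SPRED1 at 4.04, DUSP5 at 3.67 and SPRY4 at 2.56 FPKM. IER3 and DUSP1 were the top pair in all 6 libraries and did not overlap in range with each other. Below them the ranges of neighbours in this order overlapped, as for DUSP6 (8.62 to 13.9 FPKM) and DUSP4 (4.96 to 14.9 FPKM).

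No gene of the set passed the test for circMYBL1 overexpression, and 8 of the 10 passed the test for replicate number. In the test of overexpression against vector, 0 of the 10 genes were called at an adjusted p under 0.05 (limma on log2(FPKM + 1), Benjamini-Hochberg over all loci), where 0% of all tested loci were called. With replicate number added to the fit as a block, 0 of the 10 were again called, where 0.0995% of loci were. At an unadjusted p under 0.05, 0 of the 10 genes passed in either fit, where 0.539% of loci passed without the block and 7.19% with it. In the test of replicate number, which asks whether the numbers 1, 2 and 3 differ over both groups, 8 of the 10 passed, where 46.5% of all loci did. These were the 4 DUSP genes, both Sprouty genes, EGR1 and IER3.

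**Figure D1:**
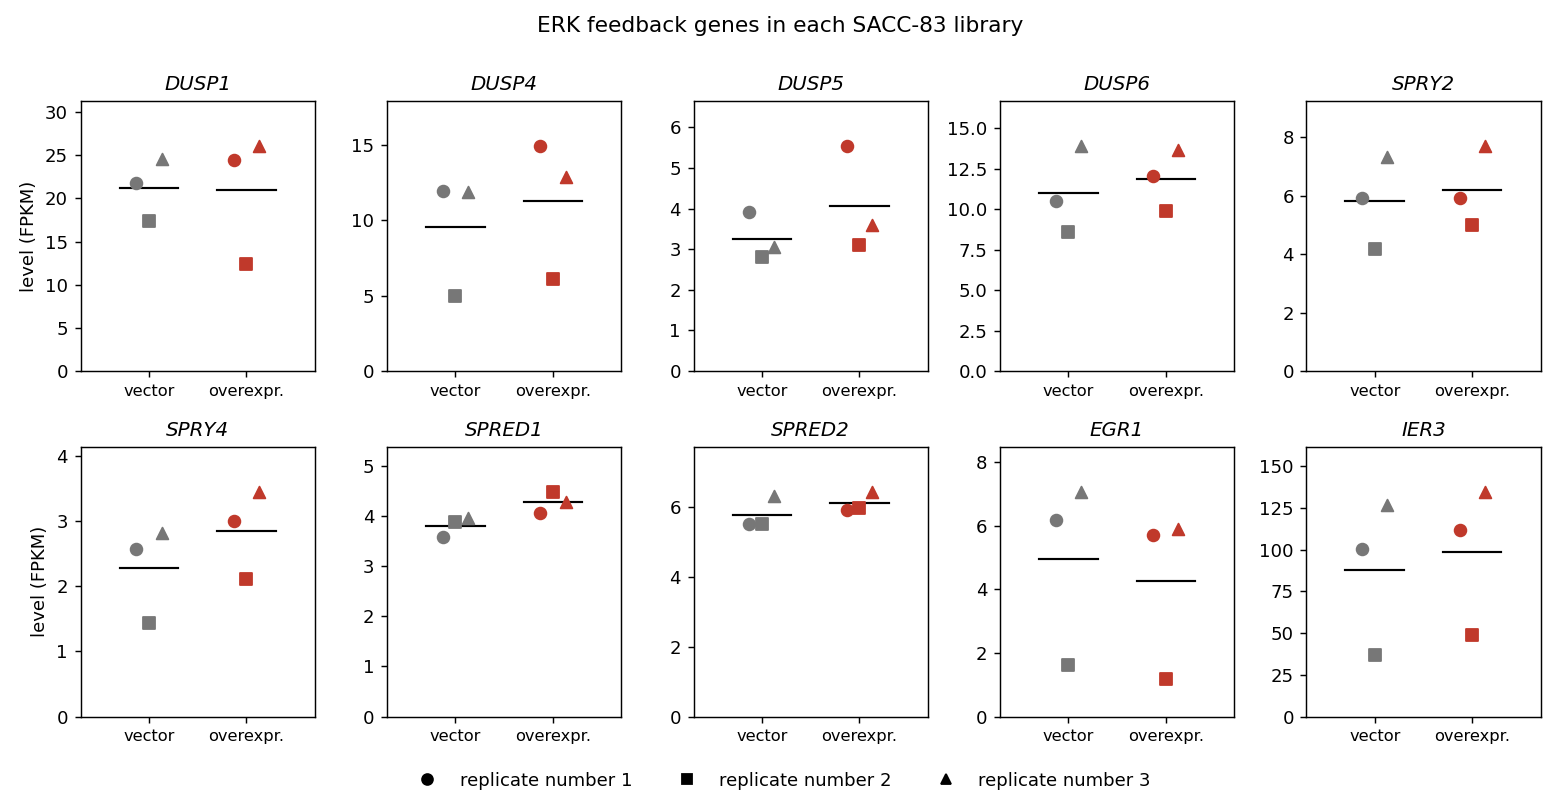
Level of each of the 10 genes in each library, in FPKM on a linear axis from 0 with its own scale per panel, by group (x axis). Circles, squares and triangles are replicate numbers 1, 2 and 3, and black lines are group means of 3 libraries. The squares lie lowest in both groups for 8 genes (DUSP1, DUSP4, DUSP5, DUSP6, SPRY2, SPRY4, EGR1 and IER3), while the SPRED1 groups are separated by a small step.

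EGR1, a zinc finger transcription factor of the immediate-early response, had the widest range of the set on the log2 scale. EGR1 (ENSG00000120738, chromosome 5, 138465490 to 138469315, plus strand) was measured at 6.18, 1.61 and 7.07 FPKM in vector libraries 1, 2 and 3 and at 5.69, 1.19 and 5.89 FPKM in their overexpression counterparts. Both libraries numbered 2 lay far below the other 4, and the ranges of the groups overlapped. The mean of number 1 was 4.23 times and the mean of number 3 was 4.62 times that of number 2. The difference of log2 values was -1.53 for number 2 against 1 (SE 0.14, limma, adjusted p = 3.1e-05) and 1.64 for number 3 against 2 (SE 0.14, adjusted p = 5.12e-05). Number explained 98.2% of the sum of squares of the EGR1 log2 values and group 1.65%.

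EGR1 was also the gene of the set that was lower in the overexpression library in each of the 3 same-numbered pairs. The ratios of overexpression to vector were 0.921, 0.740 and 0.832 in pairs 1, 2 and 3. The log2 fold change came to -0.19 (limma SE 0.58, adjusted p = 1.0). Of all tested loci, 11.9% were lower in 3 of 3 pairs, so 1 gene of 10 is near that share.

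The window before the EGR1 start is shown because it holds 2 matches to the CArG box, the core of the serum response element, which the factor SRF binds and through which ERK-phosphorylated ETS factors are known to act. The sequence is that of RefSeq on GRCh38.p14, plus strand, chr5:138465229-138465478, the 250 bases before the RefSeq start, written 5′ to 3′. Capitals mark the CArG boxes.
EGR1: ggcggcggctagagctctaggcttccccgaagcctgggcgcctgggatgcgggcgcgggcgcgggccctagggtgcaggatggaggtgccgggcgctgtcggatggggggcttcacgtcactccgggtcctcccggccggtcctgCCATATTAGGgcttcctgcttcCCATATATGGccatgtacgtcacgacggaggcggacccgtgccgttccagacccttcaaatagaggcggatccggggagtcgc
The first box spans bases -105 to -96 and the second bases -83 to -74 from the start. A CArG box was found in 1.16% of 35116 promoter windows of this length, and EGR1 held the only match among the 10 windows of the set. Those 10 windows belong to 7 of the genes (3 to SPRY2, 2 to SPRED2, 1 each to DUSP1, DUSP6, SPRY4, SPRED1 and EGR1). The other genes, DUSP4, DUSP5 and IER3, had no window and were not searched for motifs.

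IER3, an immediate-early gene whose product acts on cell survival and prolongs ERK phosphorylation, was likewise lowest in number 2. IER3 (ENSG00000137331, chromosome 6, 30743199 to 30744554, minus strand) was measured at 100.7, 36.9 and 126.6 FPKM in vector libraries 1, 2 and 3 and at 111.5, 49.0 and 135 FPKM in their overexpression counterparts. In both groups the library numbered 3 was highest and the library numbered 2 lowest, and the groups overlapped. Number 1 read 2.47 times and number 3 read 3.04 times the level of number 2. The log2 difference was -1.30 for number 2 against 1 (SE 0.12, limma, adjusted p = 3.45e-05) and 1.60 for number 3 against 2 (SE 0.12, adjusted p = 3.28e-05). IER3 was higher with overexpression in 3 of 3 pairs, with ratios of 1.11, 1.33 and 1.07, and its log2 fold change was 0.21 (SE 0.54, adjusted p = 1.0). The antisense gene IER3-AS1 shares 359 bases of exon with IER3 and is not among the loci of the table. The sources used here do not say if counting was strand-specific, and reads of this overlap cannot be assigned.

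The 4 DUSP genes encode dual-specificity phosphatases of the MAP kinases. DUSP1 and DUSP4 are nuclear enzymes that act on several MAP kinases. DUSP5 is a nuclear enzyme specific for ERK, and DUSP6 is a cytoplasmic ERK phosphatase. DUSP4 (ENSG00000120875, chromosome 8, 29333064 to 29350668, minus strand) varied most among them. DUSP4 stood at 11.9, 4.96 and 11.9 FPKM in vector libraries 1, 2 and 3 and at 14.9, 6.11 and 12.9 FPKM in their overexpression counterparts. Each overexpression library lay above the vector library of its number, with ratios of 1.25, 1.23 and 1.08, yet overexpression replicate 2 lay below vector replicates 1 and 3. The log2 fold change came to 0.22 (limma SE 0.41, adjusted p = 1.0), and DUSP4 was lower in number 2 than in number 1 by a log2 difference of -1.14 (SE 0.12, adjusted p = 8.44e-05).

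DUSP1 (ENSG00000120129, chromosome 5, 172768090 to 172771195, minus strand) was measured at 21.8, 17.4 and 24.5 FPKM in vector libraries 1, 2 and 3 and at 24.4, 12.4 and 26.1 FPKM in their overexpression counterparts. The groups overlapped, and the lowest value was that of overexpression replicate 2. The pairs did not share a direction: the ratios were 1.12, 0.715 and 1.06, and the log2 fold change came to -0.07 (limma SE 0.29, adjusted p = 1.0). DUSP1 was lower in number 2 than in number 1 (log2 difference -0.62, SE 0.15, adjusted p = 0.00833) and than in number 3 (0.74 for 3 against 2, SE 0.15, adjusted p = 0.00516). The difference from number 1 was no longer called with GC content and length correction (-0.39, adjusted p = 0.0569), with all loci kept in the fit (adjusted p = 0.0707), or without overexpression replicate 1 or 2 (-0.45 and -0.33, adjusted p = 0.0610 and 0.179). That from number 3 was not called without overexpression replicate 2 (0.46) or 3 (adjusted p = 0.0695 and 0.0511) or with all loci fitted (adjusted p = 0.0643).

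The DUSP1 window is shown because it differs in kind from that of EGR1: it holds a full cAMP response element and no CArG box. The sequence is that of RefSeq on GRCh38.p14, minus strand, chr5:172771196-172771445, the 250 bases before the start, 5′ to 3′. Capitals mark the cAMP response element, TGACGTCA, at bases -125 to -118.
DUSP1: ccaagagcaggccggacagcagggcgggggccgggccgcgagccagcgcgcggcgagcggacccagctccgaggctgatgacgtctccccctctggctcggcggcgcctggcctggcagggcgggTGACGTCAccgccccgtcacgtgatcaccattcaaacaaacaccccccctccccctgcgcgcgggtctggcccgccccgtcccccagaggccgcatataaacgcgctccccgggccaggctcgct
This element occurs in 1.65% of all windows and in 1 of the 10 windows of the set. Of the other motifs searched on both strands, the EGR site GCGNGGGCG lay in 3 of the 10 windows (8.42% of all windows), namely those of EGR1, SPRY4 and the first of SPRY2. The AP-1 site TGANTCA lay in 0 of 10 (6.57%), and the ETS core GGAA in 9 of 10 (92.7%), DUSP1 being without one.

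DUSP6 (ENSG00000139318, chromosome 12, 89347232 to 89353271, minus strand) was measured at 10.5, 8.62 and 13.9 FPKM in vector libraries 1, 2 and 3 and at 12.1, 9.87 and 13.7 FPKM in their overexpression counterparts. Its range was narrower than that of DUSP4, with number 2 lowest and number 3 highest in both groups. The log2 difference was 0.53 for number 3 against 2 (SE 0.12, limma, adjusted p = 0.00828) and -0.26 for number 2 against 1 (SE 0.12, adjusted p = 0.0996). The first was no longer called without vector replicate 2 (adjusted p = 0.0871) or vector replicate 3 (adjusted p = 0.119). Ratios within the pairs were 1.15, 1.15 and 0.983, and the log2 fold change was 0.11 (SE 0.21, adjusted p = 1.0). The antisense gene AC024909.2, also not among the loci of the table, shares 1875 bases of exon with DUSP6, and its reads could not be told apart.

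DUSP5 (ENSG00000138166, chromosome 10, 110497838 to 110511544, plus strand) was the phosphatase gene with the lowest level and another order of libraries. DUSP5 stood at 3.91, 2.81 and 3.05 FPKM in vector libraries 1, 2 and 3 and at 5.54, 3.09 and 3.59 FPKM in their overexpression counterparts. Number 1 was highest in both groups, and the value of overexpression replicate 1 stood above the rest. DUSP5 was lower in number 2 than in number 1 (log2 difference -0.52, SE 0.15, limma, adjusted p = 0.0139), and numbers 3 and 2 gave a difference of 0.13 (SE 0.15, adjusted p = 0.526). The call for number 2 against 1 was lost when all loci were fitted (adjusted p = 0.0675) and without overexpression replicate 1 or 2 (adjusted p = 0.0879 and 0.149), and the difference was -0.81 with quantile scaling. The ratios of overexpression to vector were 1.42, 1.10 and 1.18, and the log2 fold change was 0.23 (SE 0.22, adjusted p = 1.0).

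The Sprouty genes SPRY2 and SPRY4, which encode inducible inhibitors of receptor tyrosine kinase signalling, were expressed at low levels. SPRY2 (ENSG00000136158, chromosome 13, 80335976 to 80340951, minus strand) was measured at 5.93, 4.19 and 7.32 FPKM in vector libraries 1, 2 and 3 and at 5.91, 4.98 and 7.69 FPKM in their overexpression counterparts. SPRY4 (ENSG00000187678, chromosome 5, 142310427 to 142326455, minus strand) was measured at 2.58, 1.43 and 2.81 FPKM in vector libraries 1, 2 and 3 and at 3.01, 2.11 and 3.45 FPKM in their overexpression counterparts. For both genes number 2 was lowest and number 3 highest in each group. Number 3 exceeded number 2 by 0.61 for SPRY2 (SE 0.13, limma, adjusted p = 0.00558) and by 0.58 for SPRY4 (SE 0.15, adjusted p = 0.0132) on the log2 scale. Against number 1, number 2 was lower for SPRY4 (-0.46, SE 0.15, adjusted p = 0.0265), and SPRY2 gave -0.31 (SE 0.13, adjusted p = 0.0674). Without vector replicate 2 or 3 the differences between numbers 3 and 2 were not called (adjusted p = 0.0837 and 0.0615 for SPRY2, 0.151 and 0.106 for SPRY4). For SPRY4 that call was also lost without overexpression replicate 3 and when all loci were fitted (adjusted p = 0.0820 and 0.0667). Its difference between numbers 2 and 1 was not called without vector replicate 1, vector replicate 2 or overexpression replicate 2 (adjusted p = 0.102, 0.239 and 0.0747), with all loci fitted (adjusted p = 0.0823) or without the group term (adjusted p = 0.0528), and was -0.74 with quantile scaling. SPRY4 had the largest positive log2 fold change of the set with overexpression, 0.25 (SE 0.24, adjusted p = 1.0), with ratios of 1.17, 1.47 and 1.23 in the pairs. SPRY2 gave 0.09 (SE 0.23, adjusted p = 1.0) and ratios of 0.996, 1.19 and 1.05.

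The SPRED genes, whose products bind the RAS regulator neurofibromin and hold back RAF activation, varied least. SPRED1 (ENSG00000166068, chromosome 15, 38252326 to 38357249, plus strand) was measured at 3.57, 3.88 and 3.95 FPKM in vector libraries 1, 2 and 3 and at 4.06, 4.48 and 4.28 FPKM in their overexpression counterparts. It was the gene of the set whose groups did not overlap: the lowest overexpression library lay above the highest vector library, a position held by 2.5% of all tested loci. The opposite position, all overexpression libraries below all vector libraries, was held by 0 of the 10 genes and by 0.845% of loci. The step was small, with pair ratios of 1.14, 1.16 and 1.08 and a log2 fold change of 0.14 (SE 0.14, limma, adjusted p = 1.0). SPRED2 (ENSG00000198369, chromosome 2, 65310851 to 65432637, minus strand) was measured at 5.52, 5.51 and 6.30 FPKM in vector libraries 1, 2 and 3 and at 5.92, 5.95 and 6.43 FPKM in their overexpression counterparts. SPRED2 gave 0.07 (SE 0.14, adjusted p = 1.0), with ratios of 1.07, 1.08 and 1.02. Neither gene was called for replicate number (F test, adjusted p = 0.752 for SPRED1 and 0.569 for SPRED2), and with trimmed mean or quantile scaling the sign of their difference between numbers 2 and 1 turned.

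As a set, the 10 genes were slightly higher on average with overexpression, within the spread of the libraries. That spread includes differences between replicate numbers. The limma SE of the 10 genes was 0.14 (SPRED2) to 0.58 (EGR1) without the block and 0.096 (IER3) to 0.13 (DUSP1) with it. Neither fit called any of them. The mean log2 fold change was above 0 for 8 of the 10 genes, against 58.1% of all loci, and 6 of the 10 were higher in 3 of 3 pairs, against 16.5% of all loci. These 6 were DUSP4, DUSP5, SPRY4, SPRED1, SPRED2 and IER3. The median log2 fold change of the set was 0.12, beside 0.03 over all tested loci, and the pair medians were 0.15, 0.17 and 0.09, beside 0.06, 0.04 and -0.03 over all loci. Leaving out 1 library moved the set's median between -0.06 (without vector replicate 2) and 0.30 (without overexpression replicate 2). In pair 1 the log2 ratio followed GC content across 11166 genes, which are not independent replicates (Spearman 0.533), and the longest transcripts of the 10 genes had a median GC content of 50.9%, against 48.3% over these genes. The part of GC content in the pair 1 values was not tested gene by gene, and after a correction for GC content and length the set's median was 0.13.

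**Figure D2:**
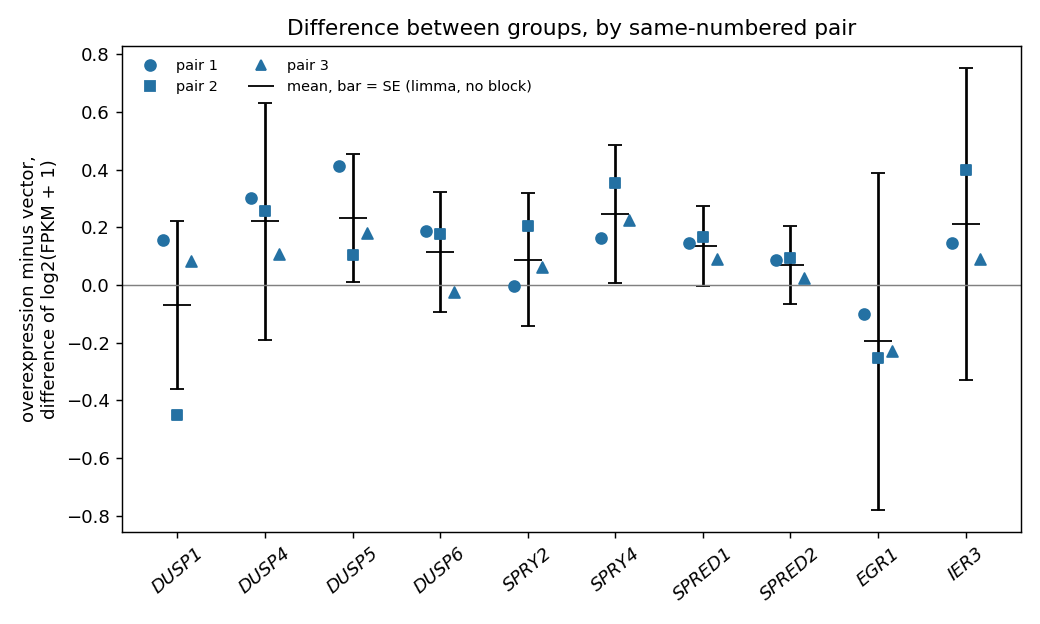
Difference between overexpression and vector for each of the 10 genes, as a difference of log2(FPKM + 1). Circles, squares and triangles are same-numbered pairs 1, 2 and 3, the dash is the mean, and bars are the limma SE without the block. Of the 10 bars, those of DUSP5 and SPRY4 do not reach 0, EGR1 is below 0 in each pair, and 6 genes are above 0 in each pair.

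By replicate number the genes of the set formed a graded series, from EGR1 at -1.53 to SPRED1 at 0.11 in the log2 difference between numbers 2 and 1. Both libraries numbered 2 lay below the other 4 for 7 of the 10 genes, where this held for 25.7% of all loci, and above them for 0 of the 10, where this held for 35.9%. In the contrast of number 2 against 1, 6 of the 10 were called lower (DUSP1, DUSP4, DUSP5, SPRY4, EGR1 and IER3) and 0 higher, where 20.7% of all loci were called lower and 29.5% higher. In the contrast of number 3 against 2, 7 were called higher (DUSP1, DUSP4, DUSP6, SPRY2, SPRY4, EGR1 and IER3), where 15.3% of loci were. Between numbers 3 and 1, 0 of the 10 were called, where 0.448% of loci were called higher and 0.0995% lower. Number 3 nevertheless held the 2 highest values for 5 of the 10 genes (DUSP1, DUSP6, SPRY2, SPRED2 and IER3), against 6.62% of all loci. Neither the libraries numbered 1 nor those numbered 3 were the 2 lowest for any of the 10 genes, where this held for 22.9% and 4.95% of all loci. The libraries numbered 1 were the 2 highest for DUSP5 alone of the 10, against 15.4% of loci.

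The median difference of the set between numbers 2 and 1 was -0.49 on the log2 scale, beside 0.09 over all tested loci. The scaling of the libraries bears on this contrast: with trimmed mean factors the median over all loci was -0.09, and 39.1% of the called loci were higher in number 2, against 58.8% with FPKM as deposited and 47.8% with quantile scaling. The set's median was then -0.64 with trimmed mean factors and -0.69 with quantile scaling, and each of these scalings called 8 of the 10 genes lower and 0 higher. With GC content and length correction the set's median was -0.38, with 5 genes called lower and 0 higher. With TPM it was -0.50, with 6 called lower and 0 higher, and 67.3% of the called loci were higher in number 2. DUSP4, EGR1 and IER3 were called for replicate number in every alternative in which they were tested (16, 15 and 16 alternatives). DUSP5 was called in 6 of 15, SPRY4 in 10 of 15, SPRY2 in 12 of 16, DUSP6 in 13 of 16 and DUSP1 in 14 of 16. The count of 8 genes fell to 4 without vector replicate 2 or vector replicate 3, and to 5 without overexpression replicate 2 or overexpression replicate 3. For number 2 against 1 it was 3 without overexpression replicate 2 and 4 without overexpression replicate 1, in place of 6. For number 3 against 2 it was 4 without vector replicate 2 or 3, in place of 7.

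**Figure D3:**
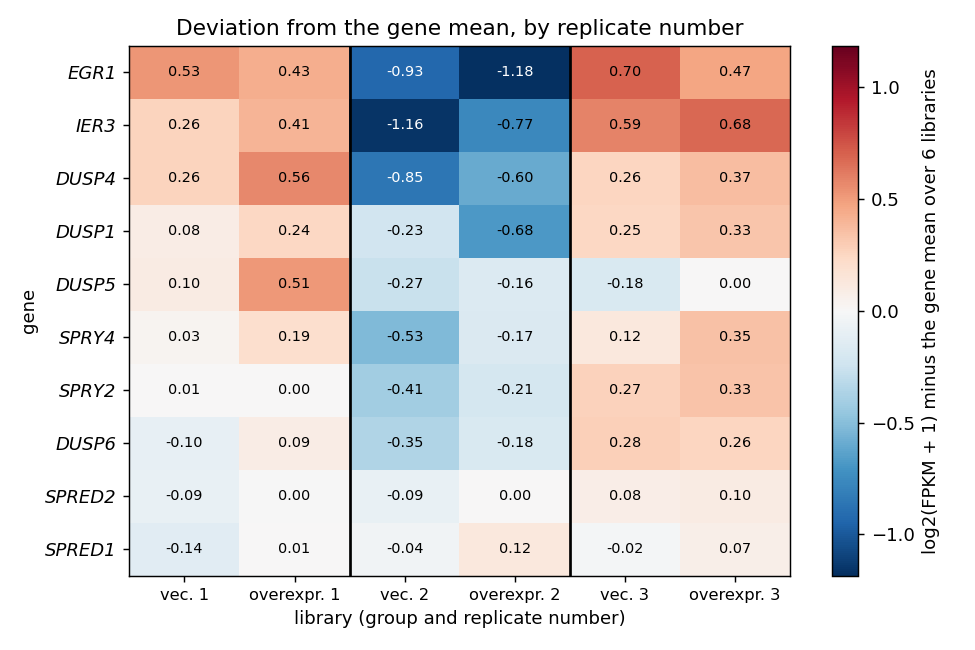
Deviation of log2(FPKM + 1) from each gene's mean over the 6 libraries, with genes in rows, ordered by the difference between numbers 2 and 1, and libraries in columns, grouped by replicate number. Red is above and blue below the gene's mean. The columns of number 2 are blue for the upper 8 rows in both groups, deepest for EGR1 (-0.93 and -1.18) and IER3 (-1.16 and -0.77), and near 0 for SPRED2.

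Some markers of other states and cell types moved with number 2 as well. The basal keratin KRT5 read 411.7 and 347 FPKM in the libraries numbered 2 and 94.9 to 142 FPKM in the other 4, and KRT7, a simple-epithelial keratin, read 234 and 304 FPKM against 428 to 679. Summed over the list, the 5 fibroblast markers lay between 8.80 and 11.2 FPKM in number 2 and between 2.95 and 4.64 in the other libraries, nearly all of it COL1A1. The 3 myoepithelial markers lay between 7.52 and 8.36 FPKM against 1.68 to 3.98, and in number 2 nearly all of it was ACTA2. CNN1 did not exceed 0.254 FPKM and MYH11 did not exceed 0.237 FPKM in any library. The 3 endothelial markers lay between 1.38 and 1.71 against 0.101 to 0.289, most of it PECAM1 in number 2 (1.27 and 0.985 FPKM). The leukocyte list read 7.38 and 8.03 FPKM in number 2 and 6.49 to 10.8 in the others, all of it from CD68. The part of these differences in the values of the ERK feedback genes was not tested.

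The genes whose profile over the 6 libraries lay nearest to EGR1 were IL1A, ARRDC4 and DIO2, at distances of 0.258, 0.285 and 0.328 (Euclidean distance of log2 deviations from the own mean). IL1A, the cytokine interleukin 1 alpha, stood at 59.7, 17.8 and 60.4 FPKM in vector libraries 1, 2 and 3 and at 55.8, 15.99 and 60.3 FPKM in their overexpression counterparts. Nearest to IER3 were AC073896.1 at 0.272, PHLDA1 at 0.294 and AMIGO2 at 0.319. AC073896.1 was near the floor, with 0 and 0.391 FPKM in the libraries numbered 2 and at most 2.38 FPKM in the others. ARRDC4 also lay low in number 2, at 0.489 and 0.508 FPKM. Within the set, DUSP6 and SPRY2 were the closest pair (0.170), followed by SPRED1 and SPRED2 (0.171), and SPRED1 and EGR1 were the farthest apart (1.95).

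Other genes known as transcriptional output of MEK and ERK formed a further list of 7 genes. For the group comparison 0 of the 7 were called, and their median log2 fold change was 0.12, beside 0.03 over all tested loci. The log2 fold change was above 0 for 6 of the 7, against 58.1% of all loci. PHLDA1, a gene of the MEK output signature, had the highest, 0.31 (12.01 ± 5.97 against 15.1 ± 6.91 FPKM, SD, n = 3), and EPHA4 the lowest, -0.20. For number 2 against 1, 4 of the 7 were called lower and 1 higher, beside 20.7% and 29.5% of all tested loci, and the list median was -0.48, beside 0.09 over all loci. FOSL1, the AP-1 subunit FRA-1, showed the deepest dip of the list. FOSL1 stood at 125, 16.1 and 117 FPKM in vector libraries 1, 2 and 3 and at 150.1, 25.7 and 111 FPKM in their overexpression counterparts, a log2 difference of -2.69 between numbers 2 and 1 (limma, adjusted p = 3.94e-06). The cyclin gene CCND1 (-1.01), PHLDA1 (-1.14) and the receptor gene EPHA2 (-0.48) were also lower in number 2. EPHA4 was higher (0.51). It was near the floor, at 1.303 and 1.198 FPKM in number 2 and 0.757 and 0.420 FPKM in number 1. It passed the filter on low values through both libraries numbered 2 and vector replicate 3 alone, so no conclusion is drawn from its call. ETV4 and ETV5, ETS factors of the PEA3 family, gave -0.26 and -0.01 and were not called.

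Immediate-early genes outside the set were called at about the rate of all loci. Of 14 listed genes 10 were tested, since FOSB, EGR2, EGR3 and EGR4 were too low. For number 2 against 1, 2 were called lower, namely ATF3 (-1.24) and KLF10 (-0.71), and 3 higher, namely BTG2 (1.28), JUNB (0.91) and ZFP36 (0.66), beside 20.7% and 29.5% of all tested loci, with a list median of -0.02. FOS, IER2 and IER5 gave differences of -0.15, 0.02 and -0.05. For the group comparison 0 of the 10 were called, with a median of -0.04. NR4A1, a nuclear receptor gene, gave the highest log2 fold change, 0.42 (2.99 ± 0.572 against 4.30 ± 0.183 FPKM, SD, n = 3), and KLF10 the lowest, -0.30. MYC, the most abundant gene of the list, read 188 ± 31.9 against 160 ± 12.6 FPKM.

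Of 9 other DUSP genes, 2 were called lower in number 2 than in number 1 (DUSP2 and DUSP10). Another 3 were called higher (DUSP9, DUSP16 and DUSP22), and both shares were near the 20.7% and 29.5% of all tested loci. DUSP2 was near the floor, at 0.591 and 0.906 FPKM in number 2 and 1.08 to 1.75 FPKM in the others. It passed the filter on low values through libraries numbered 1 and 3 alone, so no conclusion is drawn from its call. DUSP10, which acts on the stress kinases p38 and JNK, stood at 17.9, 12.7 and 20.3 FPKM in vector libraries 1, 2 and 3 and at 22.0, 12.8 and 21.7 FPKM in their overexpression counterparts. In the group comparison 0 of the 9 were called; DUSP2 gave 0.20, DUSP9 -0.17, and the most abundant gene, DUSP7, 0.07. Of the Sprouty and SPRED family, SPRY1, SPRY3 and SPRED3 did not pass the filter on low values, with a highest value of 1.17 FPKM. Their functional partners NF1, CBL and CBLB were called higher in number 2 than in number 1 (0.86, 0.53 and 0.79), as were 29.5% of all tested loci.

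The kinases and adaptors of the relay itself differed in both directions. Of 21 core genes, 9 were called higher in number 2 than in number 1 and 2 lower, HRAS (-0.63) and PTPN11 (-0.40), beside 29.5% and 20.7% of all tested loci, and the list median was 0.34, beside 0.09 over all loci. The largest difference was that of the scaffold gene KSR1, 1.74, which read 6.76 and 5.82 FPKM in number 2 and 1.09 to 2.07 FPKM in the other libraries. MAPK3, which encodes ERK1, was called higher in number 2 (0.48), while MAP2K1, which encodes MEK1, gave -0.18 and was not called. For the group comparison 0 of the 21 were called, with a median of 0.02, from -0.11 for the exchange factor gene SOS2 to 0.30 for RRAS, and the most abundant gene, MAP2K2, gave 0.07. Among 6 regulators and partners of EGR1, SRF (-0.47) and ELK1 (-0.43) were called lower in number 2 than in number 1. NAB1 (1.26), a corepressor of EGR proteins, and ELK4 (0.66) were called higher, beside 20.7% of all loci lower and 29.5% higher. The ELK genes thus differed in direction, with ELK3 at 0.27 and not called. In the group comparison 0 of these 6 were called, with NAB2 at 0.20, NAB1 at -0.25 and ELK3, the most abundant, at 0.04.

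**Figure D4:**
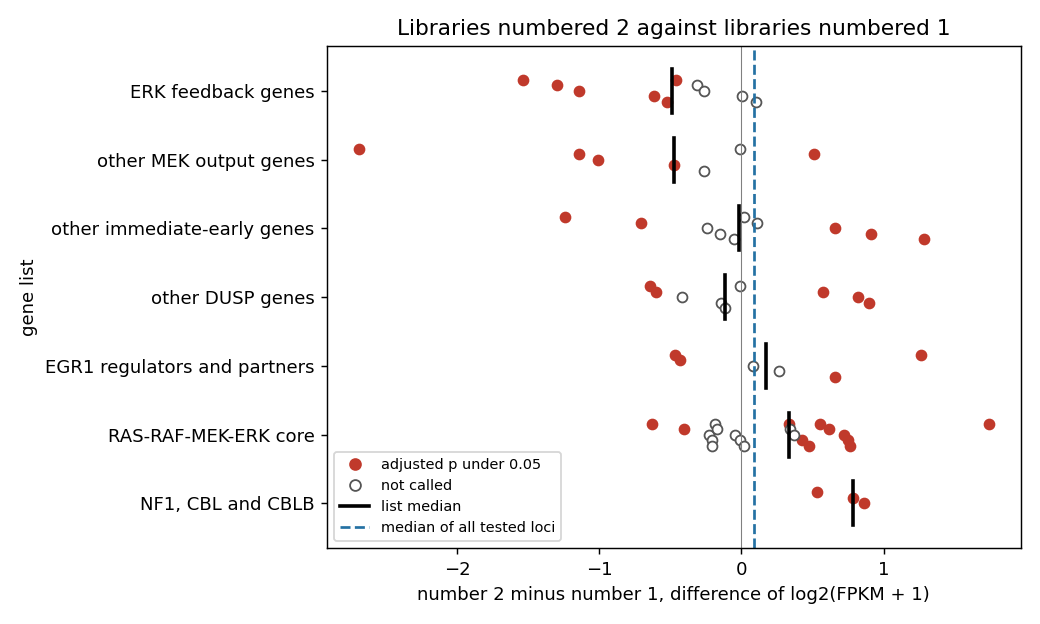
Difference between libraries numbered 2 and libraries numbered 1 for every tested gene of each list, in units of log2(FPKM + 1), with lists in rows. Filled points passed an adjusted p under 0.05 (limma), open points did not, thick lines are list medians and the dashed line is the median of all tested loci. The ERK feedback genes and the other MEK output genes have medians of -0.49 and -0.48, and the core genes of the relay a median of 0.34.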

How the data were processed

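RNA was extracted with TRIzol, and libraries were prepared from fragmented mRNA with a NEBNext Ultra kit, per the labels' protocols. The submitters' processing notes name HISAT2 and GRCh38; the counting tool, the annotation and all versions are not stated in the sources used here. The authors deposited FPKM per locus and library. Such values divide by the library total, so depth and counting error are unknown. Positions, length and GC content come from GENCODE release 29 on GRCh38, and promoter windows from RefSeq on GRCh38.p14.

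Loci reaching 1 FPKM in 3 or more of the 6 libraries were fitted on the log2(FPKM + 1) scale in R 4.3.3 by limma 3.58.1 (moderated with trend, 2-sided, Benjamini-Hochberg over 12064 loci, threshold 0.05). The group fit had group as its only term. The number fit had group and number, with an F test over numbers and the 3 contrasts between them. Fold changes on this scale understate changes of low genes. With 3 libraries against 3, an exact permutation p could not fall below 0.1. The deviations from the group means of vector and overexpression libraries 1, 2 and 3 correlated by number at 0.725, 0.881 and 0.529 over all loci. All exceed 0.1, and the pairing rests on these values rather than on the labels. Since deviations cancel within a group, numbers 1 and 3 also correlated when crossed (0.412 and 0.424). These crossed values exceed 0.1 as well, so this limit cannot tell same-numbered pairs 1 and 3 from crossed ones. The scripts were tested on simulated data.

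The 10 genes and the further lists were chosen with earlier results of these data known. Named genes were all 10 members and, of each further list, the gene with the highest mean FPKM, those with the highest and lowest log2 fold change, and genes called for a contrast; other names (such as FOS, MAP2K1 and SPRY1) were added after their values were seen. The alternatives were pseudocounts of 0.1 and 0.5, other filters, TPM, trimmed mean and quantile scaling, no trend, a GC content and length correction, the replicate block, and leaving out libraries.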

Additional observations from a re-analysis of the deposited data

How the results depend on the processing

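Overexpression against vector gave 0 called genes of the set in each alternative, with adjusted p of 0.530 or more. Over all loci the group-only fit called 0, or 0 to 1 when 1 library was left out. With the replicate block it called 12 loci, 3 with GC content and length correction as well, 11 with TPM, 12 with trimmed mean factors, 11 with quantile scaling, and 14, 148 and 22 without replicate 1, 2 or 3 of both groups. Without replicate 2 of both groups and without the block it called 10. The runs with 4 libraries have few residual degrees of freedom, and the block with each scaling and the last run were added after the data were seen. The block changed no call of the 10 genes (adjusted p = 0.694 to 0.915). The log2 fold change of 6 genes turned sign when 1 library was left out. It spanned -0.15 to 0.58 for DUSP4, -0.034 to 0.28 for DUSP6, -0.10 to 0.25 for SPRY2, -0.71 to 0.35 for EGR1, -0.32 to 0.65 for IER3 and -0.25 to 0.25 for DUSP1, which was 0.12 without replicate 2 of both groups in both fits. For replicate number, 3 genes were called without a filter on low values (3389 loci in all, 3 genes for number 2 against 1), and 5 of the 6 genes tested with a mean FPKM of at least 5 (3 for number 2 against 1). Leaving out 1 library gave 4 to 8 genes and 3663 to 6174 loci, with 3 to 6 genes for number 2 against 1 and 4 to 7 for number 3 against 2. Differences between numbers that turned sign were small ones. With trimmed mean factors these were -0.057 for SPRED1 and -0.17 for SPRED2 (2 against 1) and 0.10 for SPRED1 (3 against 2). With quantile scaling they were -0.18 for SPRED1 and -0.22 for SPRED2 (2 against 1), and -0.011 (3 against 1) and 0.17 (3 against 2) for SPRED1. With GC content and length correction SPRED1 gave -0.16, -0.093 and 0.063 for 2 against 1, 3 against 1 and 3 against 2. Leaving out 1 library gave -0.017 to 0.023 for SPRED2 (2 against 1), -0.049 to 0.017 for SPRED1 (3 against 2) and -0.044 to 0.30 for DUSP1 (3 against 1). Some of these runs had fewer libraries, and others tested fewer or more loci than the main fit (23155 without a filter, against 12064). The cause of the changes was not tested. Read depth is unknown, so counting error sets no limit that can be given here.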
